A study of Mus musculus with 28 samples.

Results

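The nuclear genes for subunits of respiratory complex I were measured in the CA1 field of the mouse hippocampus. Members were taken by symbol, as Nduf followed by a, b, c, s or v and a number, among 48709 gene identifiers of the count files. The rule matched 40 symbols, of which 37 were protein coding and are the members described here. The other 3, Ndufa11b, Ndufb4c and Ndufs6b, are annotated as processed pseudogenes and held 18, 0 and 13 counts summed over all libraries. Of the listed subunits of the membrane arm, Ndufb1 was not analysed here. All 37 members passed the filter on low counts that left 17009 genes for testing, so none was lost to it.

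Complex I, NADH:ubiquinone oxidoreductase, takes electrons from NADH, passes them along flavin and iron-sulfur clusters to ubiquinone and pumps protons across the inner mitochondrial membrane. Its matrix arm carries the redox centres, its membrane arm carries the proton pumps, and accessory subunits surround both. The subunits that form the pumps themselves are encoded in mitochondrial DNA, and all members here are encoded in the nucleus. Neurons depend on oxidative phosphorylation for most of their ATP.

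The groups compared were all 3 months old and of both sexes, with the sex of each mouse not given in the sources used here. CamkdeltaC transgenic mice had vorinostat, a histone deacetylase inhibitor, in drinking water (9 libraries), CamkdeltaC transgenic mice drank vehicle (9 libraries), and wildtype littermates drank vehicle (10 libraries). Treatment started at 2 months of age and lasted 4 weeks, and vorinostat in wildtype mice was not analysed here. As background, CaMKIIδC transgenic mice are known as a heart failure model in which the kinase is made in heart muscle, so the transgene is not a manipulation of neurons. The dissected tissue contained CA1 neurons by its markers, since Wfs1 was at 153 to 381 CPM and Fibcd1 at 112 to 423 CPM in all libraries. CPM are counts scaled to a common library total. In bulk tissue, fewer cells of a type and less RNA per cell cannot be told apart.

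Libraries held 20230085 to 33191857 counts. In 4 libraries, vorinostat 6, 7 and 9 and wildtype vehicle 2, mitochondrially encoded genes took 6.39 to 7.48% of counts, against 2.84 to 4.11% in the other 24. Hemoglobin transcripts summed to between 74.2 and 129 CPM in the 4 libraries, against 16.9 to 53.4 CPM in the other 24. Transgenic vehicle has no library among the 4, and the members' fold changes and the list counts between groups are also given without them. The exceptions are the counts of CA1 pyramidal, CA2, CA3 and interneuron markers, which are given over all libraries only.

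The promoters of 32 members were found in the RefSeq promoter table (GRCm38.p6, 250 bases before to 50 after the transcription start). Those not matched included Ndufs1, Ndufa2, Ndufa4l2 and Ndufb9. Exact matches to short motifs of known regulators of mitochondrial genes were counted on both strands, with motifs allowed to overlap. The motif AAGATGGCG, bound by the transcription factor YY1, was found in 5 of 32 members (15.6%, exact 95% binomial interval 5.28 to 32.8%), against 438 of 26993 other genes (1.62%). All 5 matches were on the gene's own strand, began 23 to 36 bases downstream of the start and contained the annotated start codon of the gene. These 5 are shown because they share both the letters and their place, and they were chosen after the matches were seen. Each run covers 50 bases before to 50 after the start, 5′ to 3′ on the gene's strand, with the motif in capitals.
Ndufa9 (chr6:126849095-126849194, minus strand): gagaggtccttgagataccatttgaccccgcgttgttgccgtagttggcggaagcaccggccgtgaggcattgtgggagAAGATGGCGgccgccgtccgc
Ndufs4 (chr13:114388045-114388144, minus strand): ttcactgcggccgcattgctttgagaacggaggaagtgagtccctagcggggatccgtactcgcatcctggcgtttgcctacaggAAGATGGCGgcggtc
Ndufs6 (chr13:73328433-73328532, minus strand): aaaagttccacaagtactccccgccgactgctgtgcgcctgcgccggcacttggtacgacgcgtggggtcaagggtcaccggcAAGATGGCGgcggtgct
Ndufc1 (chr3:51408906-51409005, minus strand): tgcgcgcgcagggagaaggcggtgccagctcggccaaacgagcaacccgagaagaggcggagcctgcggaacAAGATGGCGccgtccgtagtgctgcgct
Ndufs7 (chr10:80249399-80249498, plus strand): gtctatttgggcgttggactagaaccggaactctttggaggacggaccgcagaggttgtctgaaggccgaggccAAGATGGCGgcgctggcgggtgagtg

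The genes of these promoters are spread over the complex. Ndufa9, Ndufs4 and Ndufs6 are accessory subunits of the matrix arm, Ndufc1 is one of the membrane arm, and Ndufs7 holds the iron-sulfur cluster nearest to ubiquinone. Among the other motifs, the NRF1 motif GCGCATGCG was in 2 members (6.25%, against 1.94% of other genes), Ndufa11 and Ndufa8. The cAMP response element TGACGTCA was in 3 members (9.38% against 2.02%), Ndufa10, Ndufa11 and Ndufb2. The ETS motif CCGGAAG was in 4 (12.5% against 9.92%), the SP motif GGGCGG in 14 (43.8% against 38.2%), CCAAT in 10 (31.2% against 41.1%) and TATAAA in 4 (12.5% against 15.7%). The ERR motif TCAAGGTCA had 0 matches among the members, against 0.467% of other genes. Ndufv2 and Ndufv1, the members with the largest and the second smallest difference between libraries described below, held no match to YY1, NRF1, ETS, ERR or CRE letters, and the same window of each is shown for that contrast.
Ndufv2 (chr17:66101510-66101609, minus strand): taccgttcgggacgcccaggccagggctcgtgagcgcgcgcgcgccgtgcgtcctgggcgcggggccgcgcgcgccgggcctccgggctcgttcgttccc
Ndufv1 (chr19:4012706-4012805, minus strand): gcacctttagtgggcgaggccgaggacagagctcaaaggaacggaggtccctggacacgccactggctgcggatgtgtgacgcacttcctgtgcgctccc

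Levels of the members differed widely when set per length of transcript. Ndufb9, an accessory subunit of the membrane arm, was the highest at 206 CPM per kilobase of its longest annotated transcript, as the mean over 28 libraries. Ndufa4 followed at 135 CPM per kilobase. Ndufa4 was long counted as a subunit of complex I and is now known to belong with complex IV. The lowest were Ndufa4l2 at 1.39, Ndufs5 at 1.40 and Ndufb4 at 4.92 CPM per kilobase. Ndufa4l2 is the paralogue of Ndufa4 and a known target of the hypoxia response. With the principal transcript of each gene in place of the longest, a choice made after seeing the data, Ndufa4 came first at 273 CPM per kilobase, before Ndufb9 at 206. Ndufb7, a membrane arm subunit, was at 12.02 CPM per kilobase with the longest and at 85.6 with the principal transcript.

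The values of Ndufs5 and Ndufb4 are uncertain because reads can be shared with copies. The transcripts of Ndufs5 shared 31.1% of their 50-base windows with the processed pseudogene BC002163, which held 9035 counts in all libraries against 650 for Ndufs5. Those of Ndufb4 shared 36.99% with Ndufb4c, Gm16056 and Gm20519, which held 0, 0 and 27 counts. Over 10% of windows were shared in 12 members in all. Among these, Ndufa12 shared 26.2% with the pseudogene Gm15920, which held 5554 counts against 15971 for Ndufa12. The largest share of any member was 39.7% for Ndufs3, with Kbtbd4, Gm12251 and Gm11927. These held 7224, 74 and 6 counts, against 29114 for Ndufs3. Others overlap neighbours, such as Ndufb6 with Smim27 and Ndufa13 with Tssk6, each on the opposite strand, and Ndufb9 with Gm49356 on the same strand. The library kit does not keep the strand, so reads of overlapping genes on opposite strands cannot be told apart. The shallowest members were Ndufs5, with 14 to 45 counts per library, and Ndufa4l2, with 14 to 60.

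Between libraries the members varied together. For each library the log2 CPM of a member was set against its own median over 28 libraries, and these deviations were averaged over the 37 members. The average was 0.37 in vorinostat 6, 0.46 in vorinostat 7, 0.34 in vorinostat 9 and 0.38 in wildtype vehicle 2, and it ran from -0.086 to 0.26 in the other 24 libraries. In each of the 4 libraries 35 or 36 of 37 members were above their own median. Summed over the 37 members, Ndufa4 and Ndufa4l2 included, transcripts came to 3052 to 3352 CPM in the 4 libraries, against 2299 to 2863 CPM in the other 24.

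The 4 libraries were named for their mitochondrially encoded share, which the nuclear members do not enter. On average 36 of 37 members were higher in the 4 libraries, and in 24 of 37 every one of the 4 was above all other 24. That pattern was found in 9.99% of the 17009 genes tested. The median log2 difference of the members was 0.44, against 0.017 for all genes tested. No p is given, because the 4 libraries are no labelled group.

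**Figure D1:**
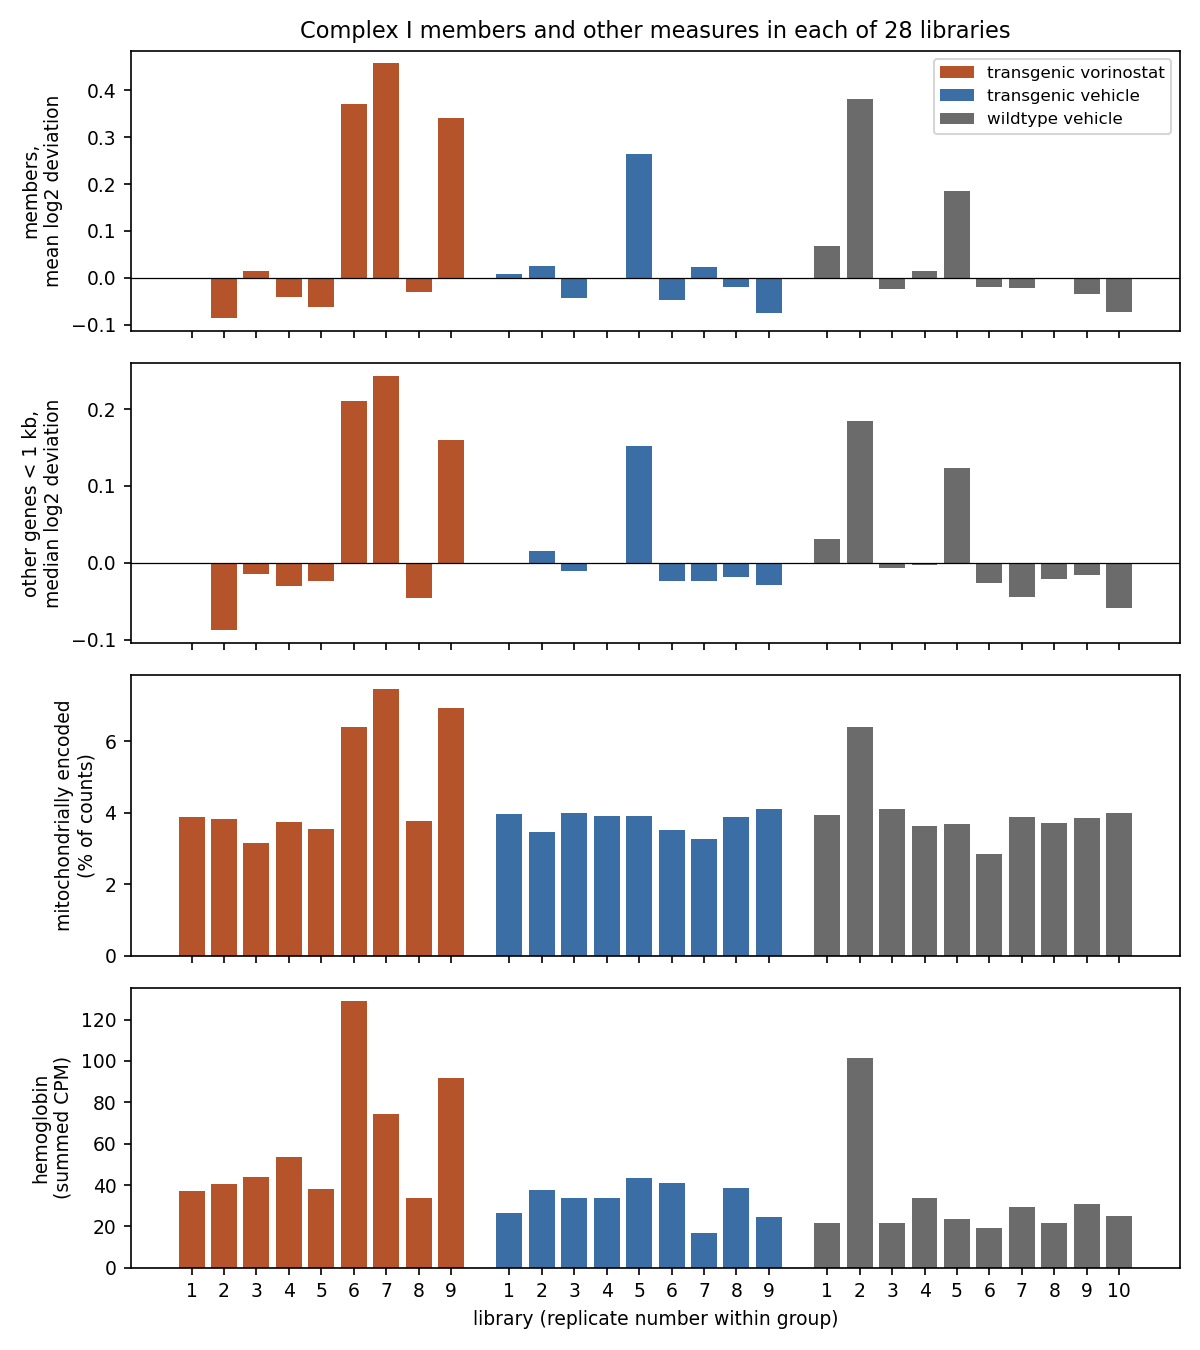
The 28 libraries are shown by group and replicate number, with the mean log2 deviation of the 37 members, the median log2 deviation of other genes whose principal transcript is under 1 kb, the mitochondrially encoded share in percent of counts, and summed hemoglobin in CPM. Vorinostat 6, 7 and 9 and wildtype vehicle 2 are the highest in all 4 panels, and transgenic vehicle 5 and wildtype vehicle 5 are high in the upper 2 panels, while their share and hemoglobin lie within the range of the other 24 libraries. Transgenic vehicle 5 has the highest hemoglobin of its group at 43.5 CPM.

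A further pair of libraries was high for the members but not for mitochondrially encoded genes. Transgenic vehicle 5 had a mean deviation of 0.26, 35 of 37 members above their median and a summed level of 2863 CPM. Wildtype vehicle 5, the deepest library at 33191857 counts, had a mean deviation of 0.19 with 31 members above their median. Their mitochondrially encoded shares were 3.91 and 3.68% of counts, within the range of the other libraries. Set against the mean of the other transgenic vehicle libraries, the members in transgenic vehicle 5 had a median log2 difference of 0.31. In wildtype vehicle 5 it was 0.24, against the mean of the other wildtype vehicle libraries outside the 4.

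Genes with short transcripts were high in the same libraries. Over 1438 genes with a principal transcript under 1 kb, members left out, the median log2 deviation was 0.16 to 0.24 in the 4 libraries, 0.15 in transgenic vehicle 5 and 0.12 in wildtype vehicle 5. The other 22 libraries lay between -0.088 and 0.031. Over 5040 genes with a principal transcript of 4 kb or more it was -0.11 to -0.077 in the 4 libraries, -0.11 in transgenic vehicle 5 and -0.12 in wildtype vehicle 5. Of the members, 22 have a principal transcript under 1 kb. The difference between the 4 and the other 24 libraries had a median of 0.21 for the short genes, against 0.44 for the members. The part of transcript length in the members' levels was not tested.

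Markers of other cells were set beside these libraries. The erythroid list, with 4 of 5 genes tested and Hba-a2 under 10 counts in every library, was higher for 4 of 4 genes and summed to 77.3 to 135 CPM in the 4 libraries, against 17.9 to 57.1 CPM in the other 24. The CA1 pyramidal list was higher for 1 of 6 genes and summed to 918 to 1221 CPM in the 4, against 1064 to 1511 CPM in the other 24. Astrocyte markers were higher for 5 of 6 genes, at 2324 to 3059 CPM in the 4 against 2013 to 2582 CPM in the other 24. Oligodendrocyte markers were higher for 5 of 6 genes, at 3887 to 6833 CPM in the 4 against 3086 to 6997 CPM in the other 24. Microglia markers were higher for 5 of 6 genes, at 275 to 327 CPM against 225 to 308 CPM. Dentate granule markers were higher for 1 of 7, at 54.9 to 97.1 CPM against 50.0 to 149 CPM. Of CA2, thalamic and endothelial markers 2 of 6 each were higher. The number was 2 of 4 for CA3, 3 of 6 for interneuron and 3 of 4 for choroid plexus markers. The part of these cells in the members' levels was not tested.

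Members differed in how far they followed the 4 libraries. Ndufv2, an iron-sulfur subunit of the NADH-oxidising end of the matrix arm, was at 164, 197 and 167 CPM in vorinostat 6, 7 and 9 and at 174 CPM in wildtype vehicle 2. It ran from 102 to 126 CPM with a median of 110 in the other 24, so the ranges did not meet, and its log2 difference of 0.66 was the largest of the members. Ndufv1, its partner that binds NADH and the flavin, was at 157, 150 and 139 CPM in vorinostat 6, 7 and 9 and at 159 CPM in wildtype vehicle 2. In the other 24 libraries it ran from 137 to 174 CPM with a median of 148, and its log2 difference was 0.023. These partners at the entry of electrons lay near opposite ends of the range.

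The remaining core subunits lay between these. Ndufs1, the largest iron-sulfur subunit, was at 175, 193 and 174 CPM in vorinostat 6, 7 and 9 and at 171 CPM in wildtype vehicle 2, against 120 to 150 CPM in the other 24 libraries. Ndufs8, which carries iron-sulfur clusters near the membrane, was at 65.7, 71.7 and 65.0 CPM in the vorinostat libraries among the 4 and at 70.6 CPM in wildtype vehicle 2, against 46.0 to 60.6 CPM in the other 24. For both, all 4 libraries lay above the other 24. Ndufs7 differed by 0.14 and Ndufs3, a subunit of the ubiquinone-binding part, by 0.22 on the log2 scale, both with overlap between the 4 and the other 24.

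By role, the median log2 difference was 0.22 over the 7 core subunits, 0.49 over the 9 accessory subunits of the matrix arm and 0.46 over the 19 of the membrane arm. All 4 libraries were above the other 24 for 3 of 7, 7 of 9 and 13 of 19 members of these classes. The accessory matrix arm ran from 0.34 for Ndufa9, which sits close to the ubiquinone site, to 0.63 for Ndufa5. The membrane arm ran from 0.044 for Ndufs5 to 0.60 for Ndufb11, which is X-linked. Ndufa4 differed by 0.58, with 229, 247 and 228 CPM in vorinostat 6, 7 and 9 and 224 CPM in wildtype vehicle 2, against 144 to 197 CPM in the other 24. Its paralogue Ndufa4l2 went the other way by -0.35 on the log2 scale, at 0.628 to 1.504 CPM in the 4 and 0.843 to 2.05 CPM in the other 24, which overlap at these low counts.

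**Figure D2:**
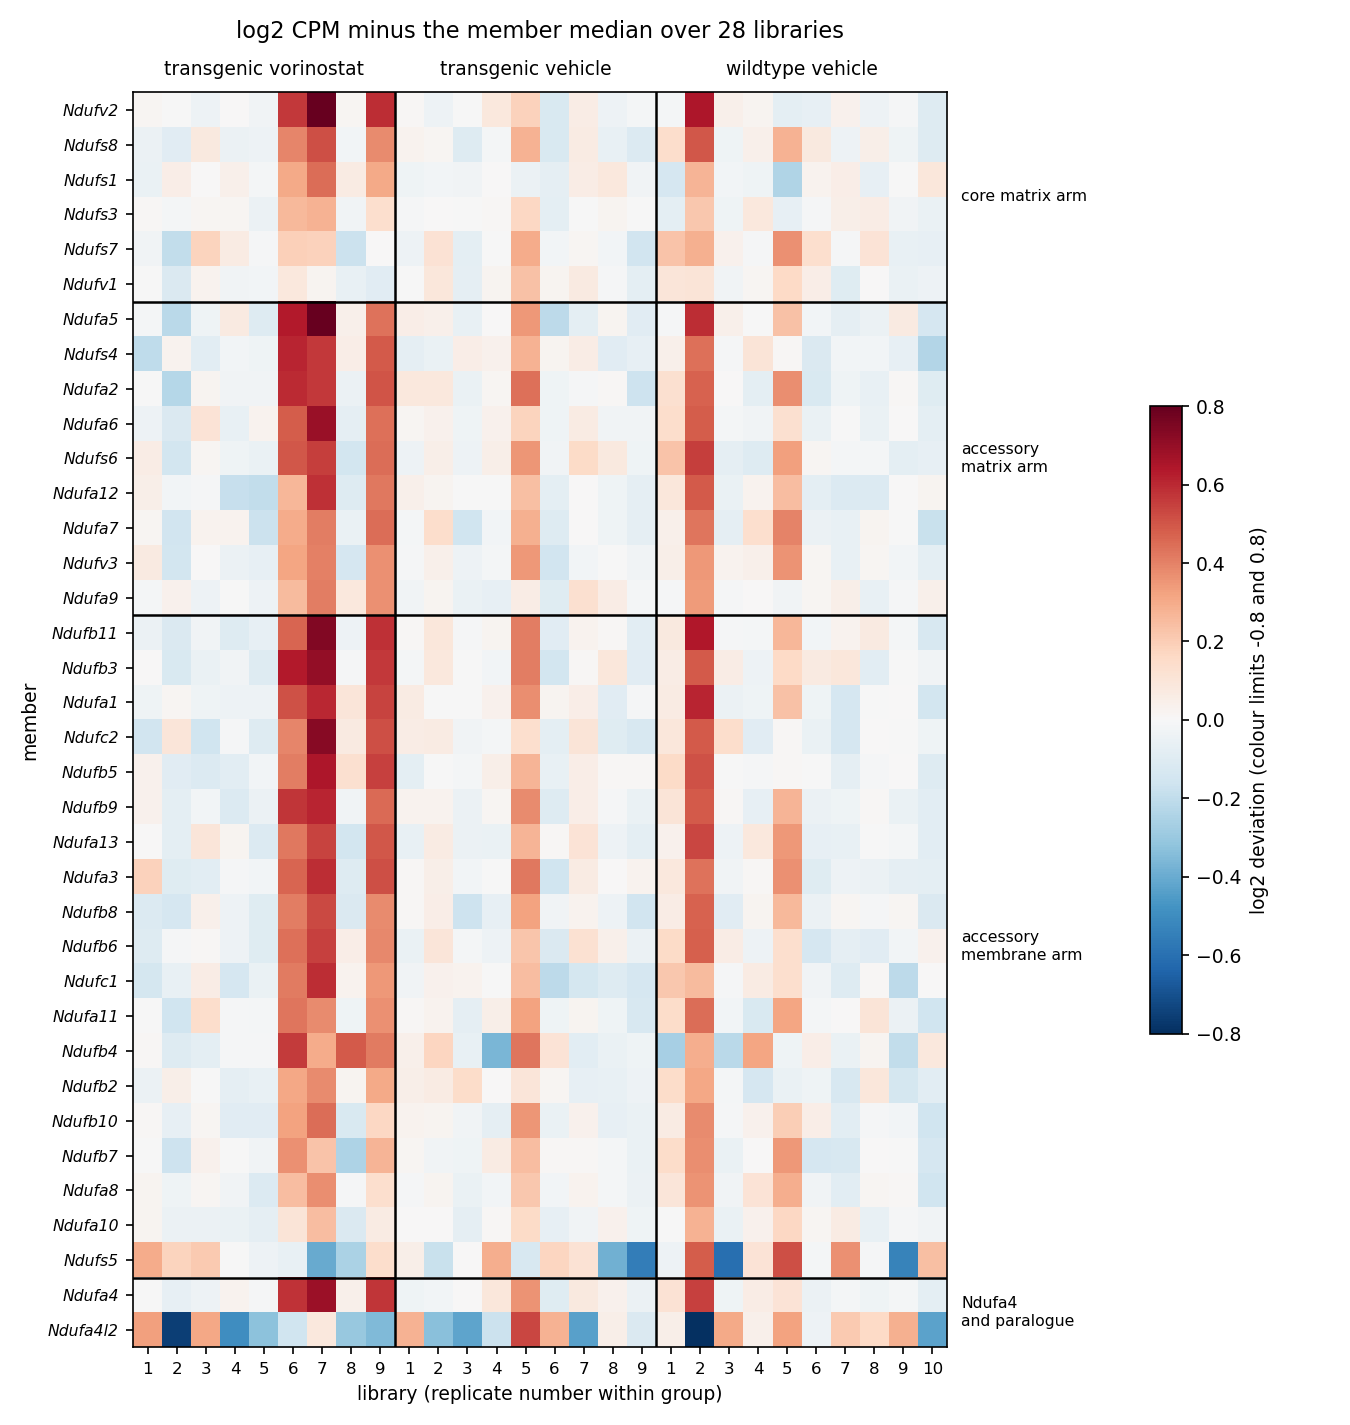
Each row is 1 of 36 members, ordered by role and then by the difference between the 4 libraries and the other 24, and each column a library, with colour for log2 CPM minus the member's median over 28 libraries. Vorinostat 6, 7 and 9 and wildtype vehicle 2 are red for nearly every member, transgenic vehicle 5 and wildtype vehicle 5 are paler, and Ndufv1, Ndufs5 and Ndufa4l2 do not follow.

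The members' spread was largely shared. The SD of log2 CPM over 28 libraries had a median of 0.20 over the members, equal to the 0.20 over all genes tested. After the library's mean deviation was subtracted it was 0.085, and the SD was smaller in 33 of 37 members. Within the other 24 libraries the median SD was 0.11 before and 0.069 after the subtraction. Members enter that mean themselves, so these values are a description.

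Members with a smaller difference had transcripts richer in G and C. Across the 37 members, Spearman's rho of the log2 difference with the GC content of the principal transcript was -0.46, and with its length -0.28. All points share the same libraries, and no p is given. The median difference was 0.51 over 18 members below the median GC content of 52.2% and 0.38 over the 19 at or above it.

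Modules of coexpressed genes, deposited by the authors and made from samples of this study, placed most members together. In the authors' deposited table, 15 members were in the black module (40.5% of members, against 10.7% of 18014 genes) and 15 in the yellow module (40.5% against 6.20%). Black held Ndufv2, Ndufa5, Ndufs4 and Ndufa4 among others, with a median log2 difference of 0.52 and a median GC content of 48.0%. Yellow held Ndufb11, Ndufb9, Ndufs8 and Ndufa13 among others, with a median of 0.45 and 55.3% GC. The darkred module held Ndufb7, Ndufs7 and Ndufv1 among others, with a median difference of 0.12 and 58.1% GC, so the core subunits Ndufs7 and Ndufv1 lay in a module apart from most of the complex. Ndufs1 was in lightcyan, Ndufs5 in cyan and Ndufa4l2 in green. Since the modules came from these samples, they are not independent of the pattern over libraries.

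**Figure D3:**
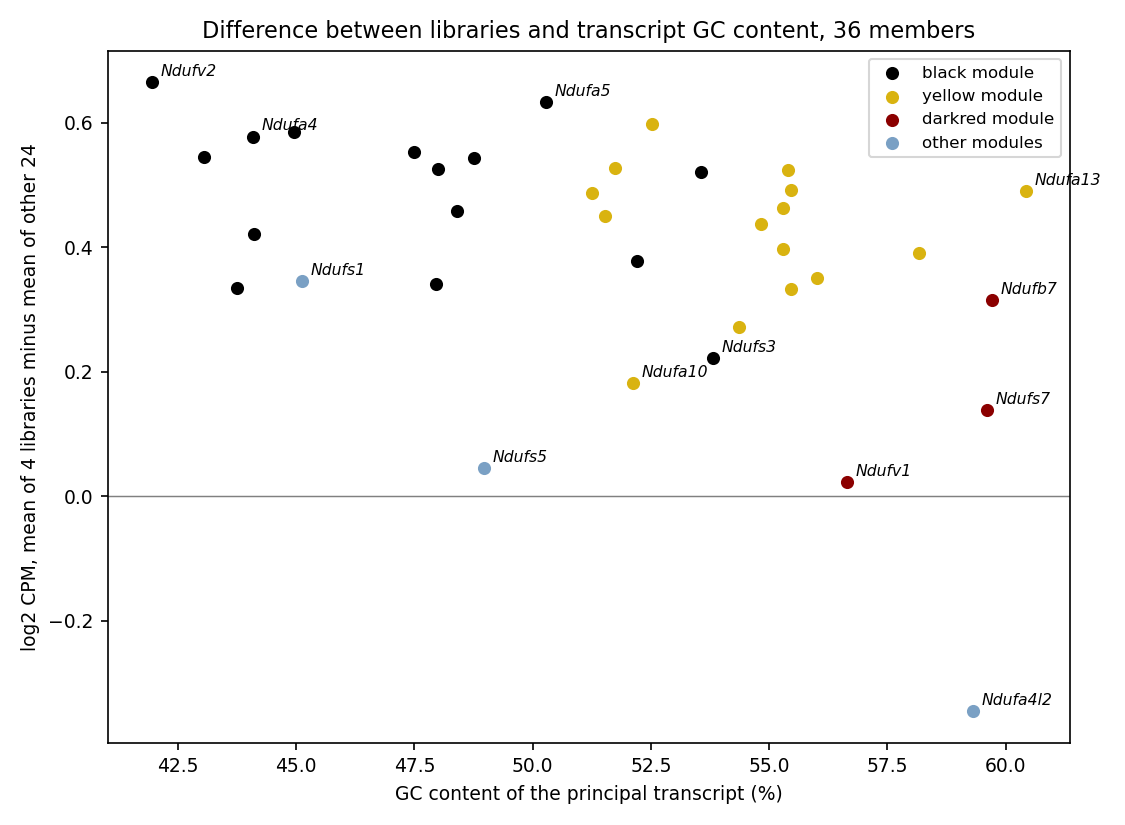
Each point is 1 of 36 members, with the GC content of its principal transcript in percent on the x axis and the log2 CPM difference between the 4 libraries and the other 24 on the y axis, coloured by the authors' deposited module. Members of the black module lie at lower GC content and larger differences, the darkred members Ndufs7 and Ndufv1 near the bottom right, and Ndufa4l2 alone below 0.

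Vorinostat was compared with vehicle in transgenic mice, the question being which transcripts the drug changed in CA1. No member passed. Of 37 members 0 had an edgeR adjusted p under 0.05, and of the 17009 genes tested 0% did. The smallest adjusted p of a member was 0.345. At an unadjusted p under 0.05 there were 2 members, Ndufs1 and Ndufv2, against 14.4% of all genes tested, and DESeq2 called 0 members and 1 gene at an adjusted p under 0.05. That gene, Igfbp4, which is no member and is named after its values were seen, had a DESeq2 log2 fold change of -0.40 (SE 0.0835, adjusted p = 0.0250).

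The fold changes nevertheless had mostly 1 sign. They were positive in 34 and negative in 3 members with a median of 0.12 on the log2 scale, where 50.9% of all genes were positive. Without the 4 libraries the count was 3 positive and 34 negative with a median of -0.058, again with 0 members called. The median over all genes in that fit was -0.0033. The fit kept transgenic vehicle 5, where the members' mean log2 deviation was 0.26. This deviation averaged 0.015 over the 9 transgenic vehicle libraries and -0.017 over the 8 without that library. Over the 6 vorinostat libraries outside the 4 it averaged -0.034. The part of transgenic vehicle 5 in the negative values was not tested. Of the 4 libraries, 3 are vorinostat and 0 transgenic vehicle libraries. The summed level of the members was 2634 ± 415 CPM with vorinostat, against 2447 ± 168 CPM in transgenic vehicle (SD, n = 9 each), while the medians were 2386 CPM with vorinostat and 2404 CPM in transgenic vehicle. The 95% range of each fold change, taken as 2 standard errors on either side, stayed between -0.14 and 0.46 over 34 members, leaving out the low or uncertain Ndufa4l2, Ndufs5 and Ndufb4, and between -0.25 and 0.10 without the 4 libraries.

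Ndufs1 ran from 136 to 193 CPM with a median of 147 in vorinostat libraries and from 134 to 150 with a median of 139 in transgenic vehicle. The ranges overlapped, and the log2 fold change was 0.15 (SE 0.0628, edgeR adjusted p = 0.345). Ndufv2 ran from 108 to 197 CPM with a median of 112 in vorinostat libraries and from 102 to 126 with a median of 110 in transgenic vehicle. Its log2 fold change of 0.24 (SE 0.109, edgeR adjusted p = 0.345) became -0.025 without the 4 libraries, while that of Ndufs1 was 0.021. Ndufa9, with 82.0 to 112 CPM in vorinostat and 78.8 to 92.0 CPM in transgenic vehicle libraries, had 0.12 (SE 0.0610, edgeR adjusted p = 0.348) and became -0.0025 without the 4. On the negative side, Ndufv1 had -0.052 (SE 0.0436) and Ndufa4l2 -0.14 (SE 0.172), both short of the threshold, and without the 4 they had -0.069 and -0.15. Positive values were found in 5 of 7 core subunits, 9 of 9 accessory matrix subunits and 19 of 19 accessory membrane subunits, with medians of 0.060, 0.12 and 0.13. The counts without the 4 libraries turned to 1 of 7, 0 of 9 and 2 of 19, with medians of -0.033, -0.067 and -0.061.

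Markers of other cells also differed in sign between these groups, with 0 genes past the threshold. Erythroid markers were positive in 4 of 4 genes with a median log2 fold change of 0.85 and summed to 36.7 to 135 CPM in vorinostat libraries, against 17.9 to 46.1 CPM in transgenic vehicle. Dentate granule markers were negative in 7 of 7 genes with a median of -0.37 and summed to 54.9 to 97.1 CPM in vorinostat libraries, against 66.5 to 136 CPM in transgenic vehicle. The medians of these sums were 72.4 CPM with vorinostat, 87.5 CPM in transgenic vehicle and 70.8 CPM in wildtype vehicle. Between transgenic and wildtype vehicle the same list was positive in 6 of 7 genes with a median of 0.25. Over 28 libraries CA2 markers were negative in 5 of 6 genes (median -0.33) and CA3 markers in 3 of 4 (median -0.18). CA1 pyramidal markers were negative in 5 of 6 (median -0.16), and interneuron markers positive in 4 of 6 (median 0.027). Without the 4 libraries the erythroid markers were positive in 4 of 4 with a median of 0.40, and the dentate granule markers negative in 6 of 7 with a median of -0.44. Their part in the members' values was not tested.

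The rest of the complex I pathway was listed beside the members. Of 20 assembly factors tested, 18 were positive and 2 negative between vorinostat and transgenic vehicle, with a median log2 fold change of 0.11, and 0 passed. Ndufaf2, which assists late assembly of the matrix arm, had 0.31 (SE 0.101), at 12.5 ± 3.00 CPM with vorinostat against 10.1 ± 0.758 CPM in transgenic vehicle (SD, n = 9 each), with an edgeR adjusted p of 0.345. Without the 4 libraries it had 0.073, and the list was positive in 8 and negative in 12. Ndufab1, the acyl carrier protein that is also a subunit, was at 20.7 ± 3.07 CPM with vorinostat and at 18.9 ± 0.728 CPM in transgenic vehicle, with a log2 fold change of 0.13 (SE 0.0654), which became -0.012 without the 4 libraries. The mitochondrially encoded subunits, 5 of 7 tested, were all positive with a median of 0.32, and the 4 libraries were named for the share these genes belong to. Without the 4, 2 were positive and 3 negative with a median of -0.041.

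Regulators of mitochondrial genes did not share 1 direction. Of 10 tested, 4 were positive and 6 negative between vorinostat and transgenic vehicle with a median of -0.048, and 0 passed. With the 4 libraries left out, 7 were positive and 3 negative with a median of 0.025. Polrmt, the mitochondrial RNA polymerase, was at 32.9 ± 7.21 CPM with vorinostat and 37.6 ± 1.81 CPM in transgenic vehicle (SD, n = 9 each). Tfam, which packages mitochondrial DNA, was at 36.97 ± 5.47 CPM with vorinostat and 34.0 ± 1.54 CPM in transgenic vehicle. Ppargc1a, a coactivator of mitochondrial biogenesis, was at 71.0 ± 6.73 CPM with vorinostat and 70.6 ± 6.13 CPM in transgenic vehicle. The log2 fold changes between these groups were -0.19 for Polrmt, 0.12 for Tfam and 0.0082 for Ppargc1a. Without the 4 libraries they were -0.011, -0.029 and 0.071. In the 4 libraries against the other 24, the log2 difference was -0.75 for Pprc1, -0.66 for Ppargc1b, -0.58 for Polrmt and 0.36 for Tfam.

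**Figure D4:**
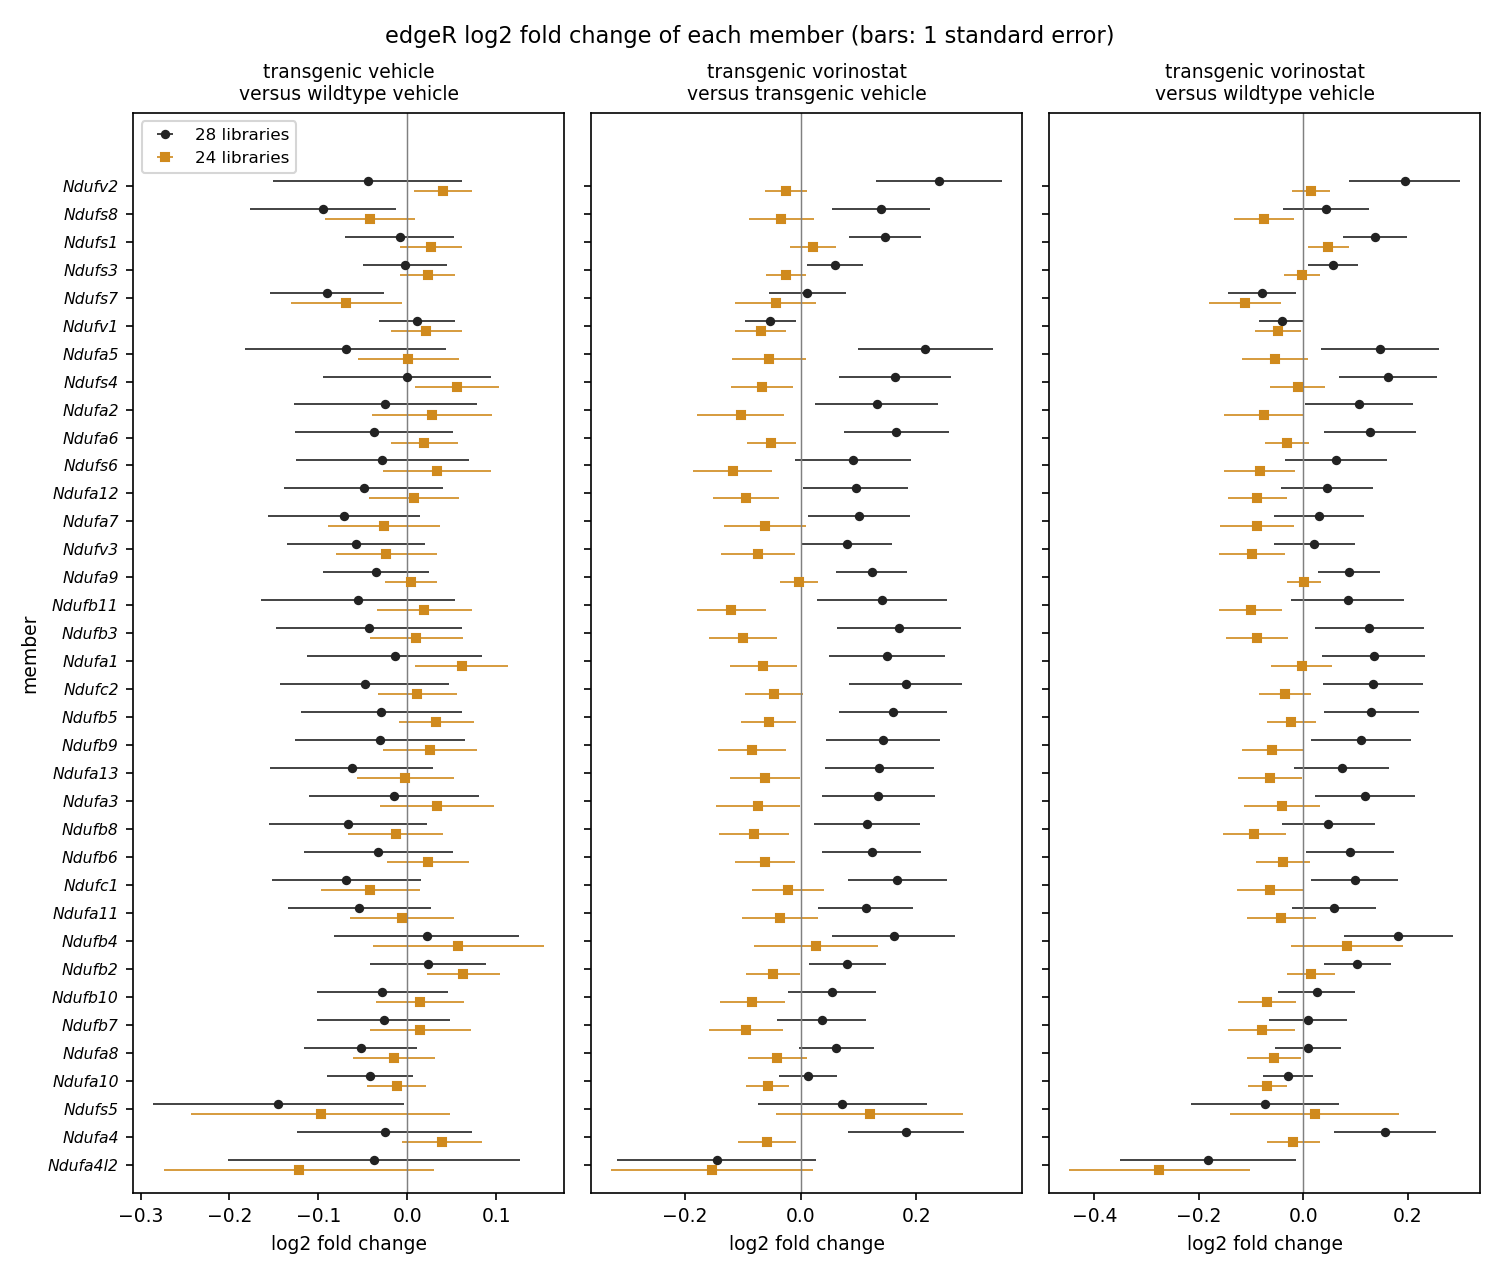
The edgeR log2 fold change of 36 members is shown with its standard error in the 3 comparisons, in black over 28 libraries and in orange over 24 libraries without vorinostat 6, 7 and 9 and wildtype vehicle 2. In both vorinostat comparisons most members lie right of 0 with all libraries and left of 0 without the 4.

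Transgenic vehicle was compared with wildtype vehicle, to ask how CA1 differs in this model of heart failure. Again 0 of 37 members passed, as did 0% of genes tested, and at an unadjusted p under 0.05 there were 0 members and 1.33% of genes. DESeq2 called 0 members and 0 genes. Values were positive in 3 and negative in 34 members with a median of -0.037 on the log2 scale, where 50.1% of genes were positive. Without the 4 libraries 25 were positive and 12 negative with a median of 0.014, against a median of 0.0038 over all genes in that fit. Leaving out wildtype vehicle 2 alone gave 23 positive and a median of 0.013, against 0.0024 over all genes. Over single libraries left out, the median was lowest at -0.072 without transgenic vehicle 5. The summed level was 2447 ± 168 CPM in transgenic vehicle (SD, n = 9) and 2507 ± 267 CPM in wildtype vehicle libraries (SD, n = 10).

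Single members lay close together. Ndufs7 was at 66.6 ± 6.20 CPM in transgenic vehicle (n = 9) and at 70.9 ± 7.54 CPM in wildtype vehicle libraries (n = 10), with a log2 fold change of -0.090 (SE 0.0643). Ndufs8 was at 50.1 ± 4.53 CPM in transgenic vehicle and 53.5 ± 7.21 CPM in wildtype vehicle, with -0.095 (SE 0.0826). Ndufs7 was at -0.068 and Ndufs8 at -0.042 without the 4 libraries. Over single libraries left out, Ndufs7 ran from -0.13 without transgenic vehicle 5 to -0.059 without wildtype vehicle 5, and Ndufs8 from -0.13 without transgenic vehicle 5 to -0.043 without wildtype vehicle 2. The largest size was that of Ndufs5 at -0.15 (SE 0.141), which rests on few and partly shared reads and was -0.097 without the 4 libraries and -0.080 without wildtype vehicle 5. The members on the positive side, Ndufb2, Ndufb4 and Ndufv1, had 0.023, 0.022 and 0.011, and 0.063, 0.058 and 0.022 without the 4 libraries. All were smaller than the spread between libraries. Over 34 members, without Ndufa4l2, Ndufs5 and Ndufb4, the range of 2 standard errors on either side stayed between -0.30 and 0.19, and between -0.19 and 0.17 without the 4 libraries.

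Vorinostat libraries were also set against wildtype vehicle. This comparison shares libraries with each of the others and adds no independent evidence. It had 0 members past the threshold, 0% of genes, and 1 member, Ndufs1, at an unadjusted p under 0.05, against 12.6% of genes, and DESeq2 called 0 members and 0 genes. Values were positive in 31 and negative in 6 members with a median of 0.085, where 51.7% of genes were positive. Without the 4 libraries 6 were positive and 31 negative with a median of -0.054, against -0.00096 over all genes in that fit. Ndufs1 was at 155 ± 19.9 CPM in vorinostat (n = 9) and at 141 ± 13.5 CPM in wildtype vehicle libraries (n = 10), with a log2 fold change of 0.14 (SE 0.0612, edgeR adjusted p = 0.384). Ndufv2 had 0.19 (SE 0.106) and Ndufb4 0.18 (SE 0.104). Without the 4 libraries Ndufs1 was at 0.048, Ndufv2 at 0.015 and Ndufb4 at 0.084. Without vorinostat 7 alone Ndufs1 was at 0.091 and Ndufv2 at 0.10. Ndufs7, Ndufa4l2 and Ndufv1 had -0.079, -0.18 and -0.041, and -0.11, -0.28 and -0.048 without the 4.

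Ndufa1 and Ndufb11, both of the membrane arm, are the X-linked members. Ndufa1 ran from 32.5 to 50.8 CPM with a median of 33.8 in vorinostat, from 31.5 to 43.4 with a median of 34.0 in transgenic vehicle and from 30.2 to 51.1 with a median of 33.1 in wildtype vehicle libraries. Ndufb11 ran from 51.6 to 93.1 CPM with a median of 54.4 with vorinostat, from 52.5 to 74.1 with a median of 56.3 in transgenic vehicle, and from 51.2 to 87.2 with a median of 56.1 in wildtype vehicle. The group ranges overlapped for both.

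The authors also deposited expression values adjusted by a mixed linear model, on a log scale whose base is not given in the sources used here, so differences are in the table's own log units. In the authors' deposited table the members' difference between the 4 libraries and the other 24 had a median of 0.20, positive in 35 of 37. The median over all genes of that table was 0.031. The members' 0.44 in log2 CPM may be on another scale, so the sizes cannot be compared. Vorinostat 6 and 7 remained the highest libraries for the members there, with mean deviations of 0.27 and 0.23, while vorinostat 9 was at 0.048, wildtype vehicle 2 at 0.097 and transgenic vehicle 5 at 0.010. Differences were positive in 29 of 37 members between vorinostat and transgenic vehicle with a median of 0.048, against 0.0071 over all 18014 genes of that table. They were positive in 28 of 37 between transgenic and wildtype vehicle with a median of 0.034, against 0.019 over all genes of that table, where the counts gave 3 of 37 members positive.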

How the data were processed

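RNA of dissected CA1 was sequenced as single-end reads after poly(A) selection with a TruSeq v2 kit, per the labels' protocols. The authors deposited raw read counts per gene for 28 libraries. Per the submitters' processing notes, mm10 was used with STAR 2.5.2b, FastQC 0.11.5 and, for counting, featureCounts (Subread 1.5.1). Annotation release, strand setting and handling of reads with several matches are not given in the sources used here. Also deposited by the authors were adjusted values on a log scale (log2 or otherwise, which no source used here states) and module membership scores.

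Genes were matched to GENCODE M21 (48349 of 48709 identifiers), GRCm38, for lengths and coordinates. Counts were tested with edgeR 4.0.16 (quasi-likelihood, robust, TMM, minimum count 10 and minimum total 15) in R 4.3.3, in 1 fit over 28 libraries, with Benjamini-Hochberg adjustment over 17009 genes and a threshold of 0.05. The fit was tested on simulated data. CPM used TMM totals, with a prior count of 2 in log2 CPM for the deviations. Alternatives were DESeq2 1.42.0, its size factors, no count filter, a replicate block, Xist as a covariate, and libraries left out.

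1 member enters all counts, sums and medians, but its own values are not reported here. Named fold changes are the 3 members with the smallest p in each direction of each comparison. Levels are named for the core subunits, the extremes per length, Ndufa4 and Ndufa4l2, X-linked members and those sharing reads. Members and lists were chosen with earlier results of these data known, as were the 4 libraries. Nothing says that libraries come from separate mice, so p-values cover only the spread among these samples, possibly technical, and counting error limits the lowest members. Among the 117 pairs of libraries within groups, chi-square per degree of freedom of the counts was 3.18 to 79.4 and 0 files were identical, so none was merged. No batch is given in the sources used here.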

Additional observations from a re-analysis of the deposited data

Results flagged for a closer look

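Of 51 sets of values within a group, 15 had a single library far from the others of its group, a gap that chance gives in about 5% of such sets, and the sets share libraries. All of them concern wildtype vehicle 2 or transgenic vehicle 5. The summed level of the members was 3200.1 CPM in wildtype vehicle 2 and 2863 CPM in transgenic vehicle 5, and the mean log2 deviation of the members was 0.264 in transgenic vehicle 5.

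In wildtype vehicle 2, Ndufa1 was at 51.1 CPM, Ndufa4 at 223.9, Ndufa9 at 106.5, Ndufb11 at 87.2 and Ndufv2 at 173.9 CPM, each above the other wildtype vehicle libraries. Ndufa4l2 was at 0.628 CPM there, below the others. In transgenic vehicle 5, Ndufa1 was at 43.4 CPM, Ndufa4 at 197.1, Ndufb11 at 74.1, Ndufb9 at 176.9, Ndufs3 at 47.0 and Ndufs8 at 60.6 CPM, each above the other transgenic vehicle libraries. Wildtype vehicle 2 had 6.41% mitochondrially encoded counts, and transgenic vehicle 5 had 3.91%.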

How the results depend on the processing

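No alternative run called a member in any comparison. Leaving out the 4 libraries, with transgenic vehicle 5 kept, turned the members' median between vorinostat and transgenic vehicle to -0.0581. It turned Ndufv2 and Ndufa9 to -0.0249 and -0.0025. This was the alternative with the largest effect on the members, and the cause was not tested. Counts over all genes stayed at 0 except between vorinostat and transgenic vehicle, with 1 under DESeq2 and 0 to 1 over single libraries left out, and between vorinostat and wildtype vehicle, with 1 under the replicate block and 0 to 3 over single libraries left out, the 3 without wildtype vehicle 2. The genes, none a member and all named after their values were seen, were Igfbp4 between vorinostat and transgenic vehicle, and Zfp26 (block), Adm (without wildtype vehicle 5), Alas2, Hbb-bt and Hbb-bs (without wildtype vehicle 2) between vorinostat and wildtype vehicle. Between transgenic and wildtype vehicle, Ndufb4 was -0.0052 with Xist as a covariate. Over single libraries left out it ran from -0.0384 to 0.0668 and Ndufv1 from -0.0178 to 0.0273. The members' median between vorinostat and transgenic vehicle ran from 0.0718 without vorinostat 7 to 0.153 without transgenic vehicle 5. Between vorinostat and wildtype vehicle it ran from 0.0271 without vorinostat 7 to 0.126 without wildtype vehicle 2, where 11 members (29.7%) had an unadjusted p under 0.05, against 22.2% of all genes, and 0 passed. With Xist as a covariate 9 members (24.3%) had an unadjusted p under 0.05 between vorinostat and transgenic vehicle, against 22.9% of all genes, and 0 passed. Between vorinostat and transgenic vehicle, Ndufv2 was 0.1451 without vorinostat 7.

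By the replicate numbers of the titles, 7 of 27 same-number pairs deviated together with a correlation above 0.1. By the same numbers, 3 of 28 libraries matched their own number best. For many libraries the title number differs from the number in the authors' sample description. The replicate block used the title numbers too, so a pairing by the description numbers was not tested. With the replicate block the medians were 0.119 for vorinostat against transgenic vehicle, -0.0493 for transgenic against wildtype vehicle and 0.0554 for vorinostat against wildtype vehicle, with 0 members called. The union of exons moved 9 of 13 levels per kilobase by more than the spread between libraries, and the principal transcript moved 1. The narrower promoter window kept the 5 matches of the YY1 motif (15.6% of members, against 1.06% of other genes). In that window SP was in 21.9% of members against 24.2% of other genes, and CCAAT in 9.38% against 15.6%. TATAAA was in 0% against 5.78%, and the cAMP response element in 3.12% against 1.03%. NRF1 was left in 1 member (3.12% against 1.02%), and ETS in 3 (9.38% against 5.98%).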
